A study of Mus musculus with 8 samples.

Results

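Regions open in wild-type cortical neurons without KCl, and in no other condition of the study, are described here. Peaks of the 4 deposited lists on chromosomes 1 to 19 were merged where they overlapped by at least 1 bp, and a region was kept when it held a peak in the WT basal list and in none of the others. The rule left 17794 of 60611 merged regions (29.4%). The regions were thus chosen by the presence and absence of peak calls, so their number and the strength and width of their peaks are descriptions and no finding, and no test was made on them.

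The study measured open chromatin by ATAC-seq in primary cortical neurons cultured from mouse embryos at E16.5. In this assay the Tn5 transposase cuts DNA that is free of nucleosomes and tags the ends for sequencing. WT basal stands for Brg1 WT neurons without KCl. The other conditions are Brg1 WT neurons after 50 mM KCl for 1 h on day 6 in vitro (WT KCl), Brg1-cko neurons without KCl (cKO basal) and Brg1-cko neurons after the same KCl (cKO KCl). The cKO neurons carry floxed Brg1 and BAF53bCre, so recombination is limited to cells that express the neuronal BAF subunit gene BAF53b, and the share of cells that recombined is not stated. TTX at 1 µM and APV at 100 µM, which silence sodium channels and NMDA receptors, preceded KCl on day 5 in vitro, and the labels do not say whether basal cultures received them too. Each condition had 2 libraries of 50000 cells but 1 deposited list, so no value below has a replicate error and every interval covers counting error only.

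Brg1, encoded by Smarca4, is the motor ATPase of the BAF complex, which slides and evicts nucleosomes and so exposes enhancers and promoters to transcription factors. KCl depolarises neurons, lets calcium in and switches on rapid response genes such as Fos and Arc. Promoters of broadly expressed genes tend to stay open in every state of a cell, while enhancers within and between genes open and close with cell type and activity.

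The promoters with the strongest of these regions show what kind of start site they covered. RefSeq promoters (GRCm38.p6, from 250 bases before to 50 after the transcript start) are shown for the 6 of the 10 strongest gene-end regions whose summit lay inside such a promoter. Capitals mark the letters of 8 motifs on either strand. These are TGACG, the core of a CREB site with its CpG, then GGGCGG, the GC box that SP factors bind, then the NF-Y motif CCAAT, and GTTGCC as the shorter site of RFX factors. The remaining motifs are GCGCATGCG for NRF1, AAGATGGCG for YY1, CCGGAAGT for ETS factors and GCGTGGGCG for EGR factors. Sar1b, a GTPase that starts COPII vesicles, lies at chr11:51763413-51763712 on the + strand.
Sar1b: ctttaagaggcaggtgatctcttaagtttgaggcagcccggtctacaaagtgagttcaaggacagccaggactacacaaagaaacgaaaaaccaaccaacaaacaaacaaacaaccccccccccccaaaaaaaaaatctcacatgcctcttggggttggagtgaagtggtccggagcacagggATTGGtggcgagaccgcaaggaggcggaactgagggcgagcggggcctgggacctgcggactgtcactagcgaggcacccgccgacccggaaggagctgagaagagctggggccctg
Nifk, a nucleolar partner of Ki-67, lies at chr1:118321593-118321892 on the + strand.
Nifk: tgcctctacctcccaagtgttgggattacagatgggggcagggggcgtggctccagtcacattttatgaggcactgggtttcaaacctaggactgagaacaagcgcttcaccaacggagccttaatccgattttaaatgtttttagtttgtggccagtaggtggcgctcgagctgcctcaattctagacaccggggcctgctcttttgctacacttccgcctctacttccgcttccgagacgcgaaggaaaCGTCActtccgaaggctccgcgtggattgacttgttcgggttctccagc
Ndufb4, a subunit of respiratory complex I, lies at chr16:37654319-37654618 on the - strand.
Ndufb4: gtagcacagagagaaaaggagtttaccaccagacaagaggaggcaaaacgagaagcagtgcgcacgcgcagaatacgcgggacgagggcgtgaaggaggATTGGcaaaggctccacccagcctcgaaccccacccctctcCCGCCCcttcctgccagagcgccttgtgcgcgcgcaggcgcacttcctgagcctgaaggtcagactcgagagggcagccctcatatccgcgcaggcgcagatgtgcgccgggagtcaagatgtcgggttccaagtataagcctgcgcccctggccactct
Ywhae, the 14-3-3 epsilon adaptor, lies at chr11:75732637-75732936 on the + strand.
Ywhae: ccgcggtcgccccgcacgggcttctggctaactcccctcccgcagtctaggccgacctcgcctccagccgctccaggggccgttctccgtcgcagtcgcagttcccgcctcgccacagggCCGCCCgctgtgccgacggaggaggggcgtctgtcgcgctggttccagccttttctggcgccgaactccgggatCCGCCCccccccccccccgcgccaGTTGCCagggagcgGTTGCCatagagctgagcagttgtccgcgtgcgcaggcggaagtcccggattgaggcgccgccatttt
Sem1, a small subunit of the proteasome, lies at chr6:6578609-6578908 on the - strand.
Sem1: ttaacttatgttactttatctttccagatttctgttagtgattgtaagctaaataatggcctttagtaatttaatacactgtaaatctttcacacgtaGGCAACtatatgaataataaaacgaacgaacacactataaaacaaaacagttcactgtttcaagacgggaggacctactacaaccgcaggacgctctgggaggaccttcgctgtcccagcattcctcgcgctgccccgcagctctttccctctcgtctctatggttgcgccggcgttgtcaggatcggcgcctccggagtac
Agtpbp1, an enzyme that trims glutamates from tubulin, lies at chr13:59556873-59557172 on the - strand.
Agtpbp1: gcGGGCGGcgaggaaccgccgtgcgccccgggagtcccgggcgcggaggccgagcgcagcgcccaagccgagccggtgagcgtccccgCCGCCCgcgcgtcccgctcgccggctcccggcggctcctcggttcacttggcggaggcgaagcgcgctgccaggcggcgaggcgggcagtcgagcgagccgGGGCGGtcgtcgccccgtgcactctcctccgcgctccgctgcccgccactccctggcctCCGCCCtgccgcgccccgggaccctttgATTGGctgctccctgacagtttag

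These 6 promoters were unlike each other in base content. GC content ran between 45.3% at Sem1 and 78.3% at Agtpbp1, and the number of CpG dinucleotides between 13 at Sar1b and 49 at Agtpbp1. Agtpbp1 held 4 GC boxes and Ywhae 2, while Sar1b, Nifk and Sem1 held none. The summit lay 7 bp past the listed start of Sar1b, 10 bp past that of Sem1, 39 bp past that of Nifk and 47 bp past that of Agtpbp1. It lay 125 bp before the start of Ndufb4 and 196 bp before that of Ywhae.

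A further 3 promoters, chosen after their values were seen, carry weaker regions at genes a neurobiologist would look for. Egr2 encodes a zinc finger factor of the rapid response (chr10:67537619-67537918, + strand), Grin1 the obligatory subunit of the NMDA receptor (chr2:25319138-25319437, - strand) and Hoxb4 a homeodomain factor that patterns the hindbrain and trunk (chr11:96318017-96318316, + strand).
Egr2: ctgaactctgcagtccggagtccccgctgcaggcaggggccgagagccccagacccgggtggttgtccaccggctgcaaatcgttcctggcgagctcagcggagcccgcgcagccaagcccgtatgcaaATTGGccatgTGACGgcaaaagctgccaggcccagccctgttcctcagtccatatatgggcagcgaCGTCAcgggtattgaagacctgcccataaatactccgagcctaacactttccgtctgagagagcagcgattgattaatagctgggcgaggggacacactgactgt
Grin1: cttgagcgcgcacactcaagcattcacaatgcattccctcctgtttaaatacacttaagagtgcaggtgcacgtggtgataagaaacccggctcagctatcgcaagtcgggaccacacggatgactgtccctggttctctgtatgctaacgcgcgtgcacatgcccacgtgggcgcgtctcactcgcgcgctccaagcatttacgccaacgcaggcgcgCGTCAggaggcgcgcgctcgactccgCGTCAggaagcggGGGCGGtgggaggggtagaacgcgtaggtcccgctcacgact
Hoxb4: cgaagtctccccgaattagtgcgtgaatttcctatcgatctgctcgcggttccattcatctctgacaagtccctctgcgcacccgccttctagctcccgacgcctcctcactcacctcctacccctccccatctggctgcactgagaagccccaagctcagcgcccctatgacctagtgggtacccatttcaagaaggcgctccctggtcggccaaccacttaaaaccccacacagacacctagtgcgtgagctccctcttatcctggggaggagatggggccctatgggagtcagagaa

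The Egr2 promoter held 2 TGACG matches and 1 CCAAT match, the Grin1 promoter 2 TGACG matches and 1 GC box, and the Hoxb4 promoter none of the 8 motifs in capitals. At Egr2 the peak had a fold of 2.53 over its local background and a summit pileup of 41 fragments, with its summit 122 bp before the start. At Grin1 the fold was 2.93 with 41 fragments and the summit 2 bp before the start. At Hoxb4 the fold was 2.69 with 29 fragments and the summit 61 bp before the start. The nearest peak of another list lay 394 bp away at Egr2, 13026 bp at Grin1 and 27555 bp at Hoxb4. A match of letters is a description and not evidence of a bound factor.

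Of the 33328 peaks of the WT basal list, 17794 (53.4%, exact 95% interval 52.9 to 53.9) had no partner in another list. With each list cut to the length of the shortest the share was 38.6%. Limiting all lists to −log10 q of at least 5 or 10, cuts added after the data were seen, gave 34.2% or 18.4%. In WT KCl, cKO basal and cKO KCl, in that order, the shares were 42.6, 42.4 and 36.1% with lists of equal length. They were 21.3, 19.3 and 29.3% at 5, and 6.56, 6.12 and 21.1% at 10. With the deposited lists the same share was 38.6% of the 19847 WT KCl peaks, 38.5% of the 19921 cKO basal peaks and 41.0% of the 24947 cKO KCl peaks. WT basal alone therefore made 17794 regions, against 7667 for WT KCl alone, 7665 for cKO basal alone and 10223 for cKO KCl alone.

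The lead of WT basal in this count depended on how the lists were cut. When each list was cut to its 19847 peaks of lowest p-value, the length of the shortest list, regions in WT basal alone numbered 7669, against 8449 in WT KCl alone, 8422 in cKO basal alone and 7159 in cKO KCl alone. WT basal then lay between the other lists and no longer above them. Of the regions described here, 7405 (41.6%) kept their peak under this cut. At −log10 q of at least 5, WT basal alone led with 4672 regions from a list of 13665 peaks. cKO KCl alone followed with 3775 from 12871, WT KCl alone with 1880 from 8843 and cKO basal alone with 1659 from 8576. At 10, cKO KCl alone led with 1095 from 5192, above WT basal alone with 932 from 5055. WT KCl alone had 178 from 2714 and cKO basal alone 183 from 2989. Both thresholds were added after the data were seen. The genome-wide background of the peak caller stood at 9.30 fragments in the WT basal list, against 8.36 in the cKO KCl list, 8.23 in the WT KCl list and 9.47 in the cKO basal list. Its part in the longer list was not tested.

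**Figure D1:**
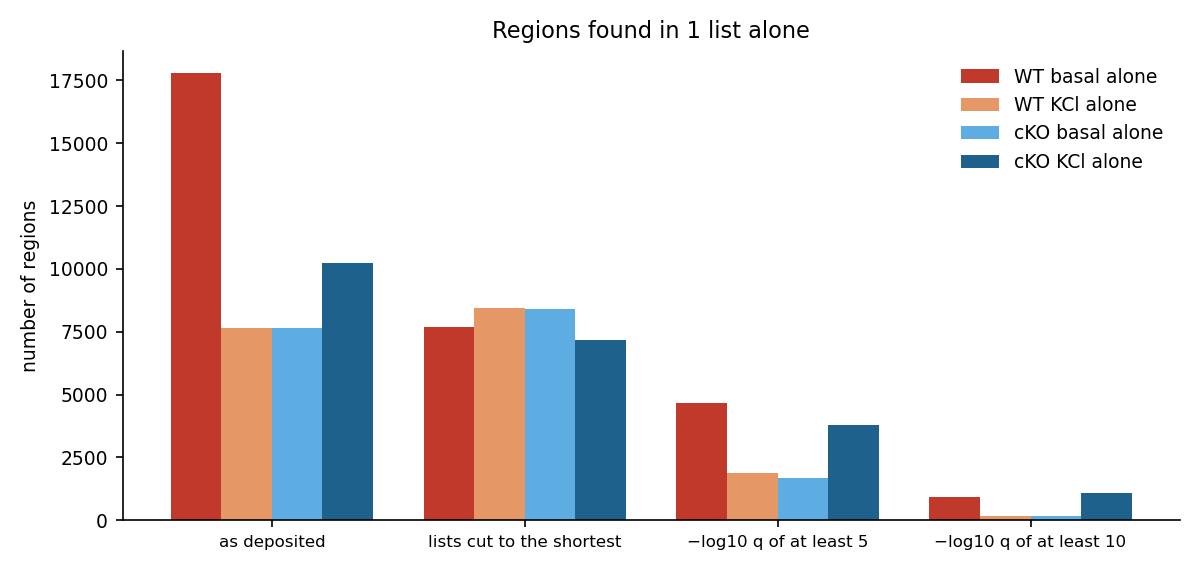
Number of regions found in 1 list alone (vertical axis) with the lists as deposited, cut to the length of the shortest, or limited to peaks of higher −log10 q; in each set of bars WT basal is leftmost, next to WT KCl, with the cKO lists to the right. With the deposited lists WT basal stands at 17794 regions, and with lists of equal length at 7669, between cKO KCl (7159) and WT KCl (8449). At −log10 q of at least 5 it stands at 4672, above cKO KCl (3775), and at 10 at 932, below cKO KCl (1095).

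The regions were weak peaks. The authors' fold over local background had a median of 2.68 and a maximum of 4.95, against a median of 3.21 and a maximum of 17.4 for the other WT basal peaks. The median summit held 29 fragments, against 38 for the other WT basal peaks, and the median width was 239 bp, against 351 bp. When WT basal peaks were cut into deciles by fold, in the lowest decile 76.3% (74.8 to 77.7) of peaks were in WT basal alone. In the highest decile 17 of 3333 peaks were (0.510%, 0.297 to 0.815). Only 37 of the regions reached a fold of 4, and 7 reached 4.5. Peaks found in another list alone were weak too: median folds were 2.82 in WT KCl alone, 2.67 in cKO basal alone and 2.79 in cKO KCl alone.

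Near the edge of the rule, regions inside and outside it looked alike. The nearest peak of another list lay at most 20 bp away for 76 of the regions, with a median fold of 2.62. The 112 WT basal peaks that overlapped a peak of another list by 1 to 20 bp had a median fold of 2.68. These cases were few, since only 2.34% of the regions had a peak of another list within 100 bp and 12.1% within 1000 bp, and the median gap was 11157 bp. At the other edge, the 5 regions of highest q-value had −log10 q between 1.35 and 1.51.

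**Figure D2:**
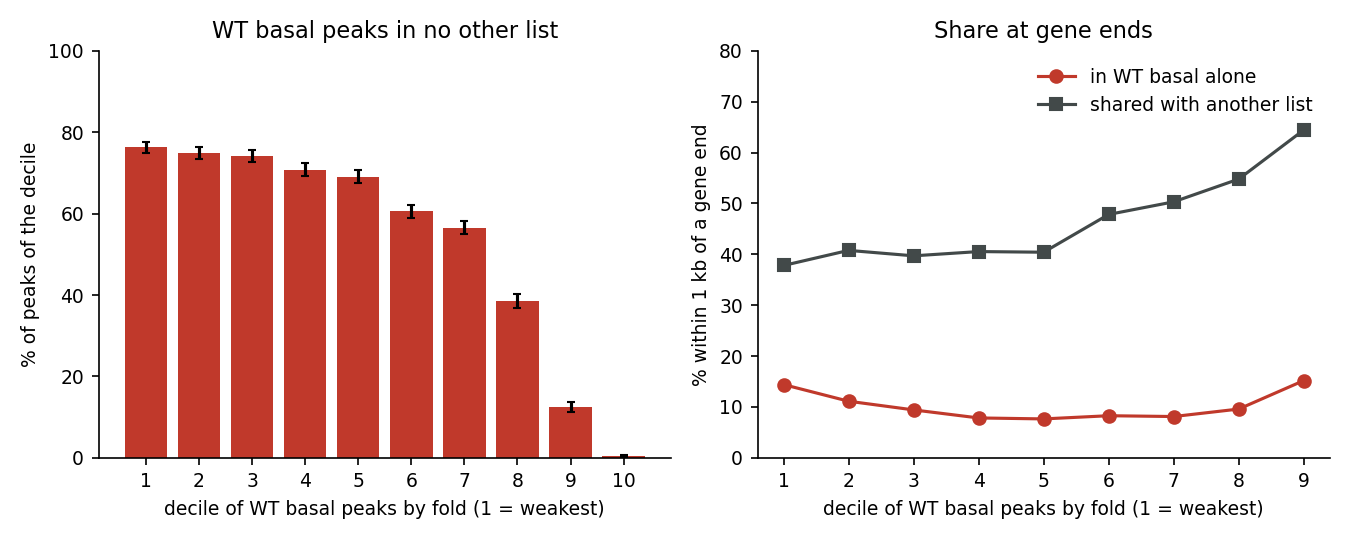
Left, percentage of WT basal peaks found in no other list (vertical axis, bars with exact 95% intervals) in each decile of the WT basal list by fold (horizontal axis, 1 weakest). Right, percentage of peaks whose merged region lies within 1 kb of a gene end, for peaks in WT basal alone (red circles) and for WT basal peaks shared with another list (dark squares) in the first 9 deciles; the left bars fall to 0.510% in the strongest decile, and the red points stay below the dark ones throughout. For shared peaks the merged region also spans peaks of other lists.

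Position in the genome was not used to choose the regions. Of them, 1748 (9.82%, 9.39 to 10.3) lay no farther than 1 kb from an end of a protein-coding gene as annotated (a gene end), 8402 (47.2%) lay inside a gene body away from its ends and 7644 (43.0%) between genes. When all lists were limited to −log10 q of at least 5 or 10, cuts added after the data were seen, the gene-end share of regions then in WT basal alone was 19.3% of 4672 or 56.1% of 932. Of those 932, 66 were among the 17794 described here. With the deposited lists, regions of the other single lists had gene-end shares of 10.6% in WT KCl alone, 10.4% in cKO basal alone and 12.2% in cKO KCl alone (11.6 to 12.9). The share was 36.8% in regions of 2 or 3 lists and 75.7% in regions of all 4 lists. For scale, 3.09% of the bases of these chromosomes lie within 1 kb of a gene end, 39.2% inside genes and 57.7% between them. Regions in WT basal alone thus sat at gene ends more often than bases do and far less often than shared regions do, much as regions of the other single lists did, with cKO KCl alone somewhat higher.

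**Figure D3:**
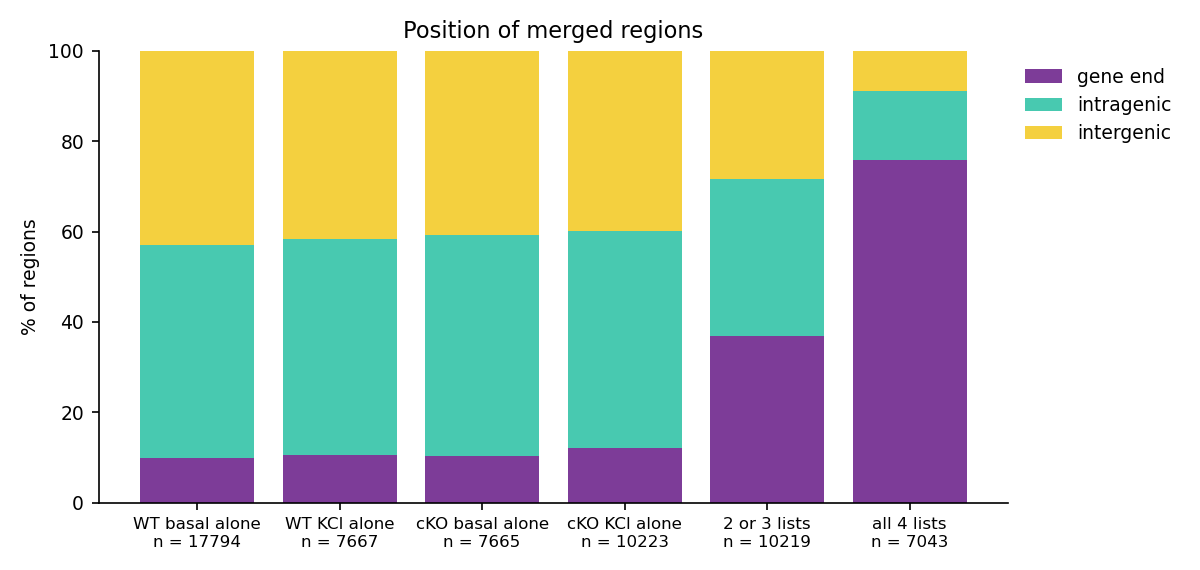
Stacked percentage of merged regions (vertical axis) at a gene end, inside a gene and between genes, for regions in WT basal alone at the left, then in each other list alone, in 2 or 3 lists and in all 4 lists, with the number of regions under each bar. The gene-end part is 9.82% in WT basal alone and 75.7% in all 4 lists.

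The difference from shared regions was present within deciles of the WT basal list by fold too, although pileup and width were not matched within a decile. Each peak was placed by its merged region. For a shared peak that region also spans peaks of other lists, and so can reach a gene end more easily. In the weakest decile by fold, 14.4% of the 2542 peaks in WT basal alone lay at a gene end, against 37.8% of the 791 shared ones. In decile 5 the shares were 7.65% in WT basal alone and 40.4% in shared peaks. In decile 9 they were 15.2% of 415 peaks in WT basal alone and 64.4% of 2918 shared ones. The strongest decile held 17 peaks in WT basal alone.

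Transcript starts, which the RefSeq promoter table gives with their strand for 16456 of 20661 genes on 18 chromosomes, showed the same picture. Of the 17212 regions there, 1134 (6.59%, 6.22 to 6.97) had their summit within 1 kb of a start, against 7.25% in WT KCl alone, 7.09% in cKO basal alone, 9.13% in cKO KCl alone and 70.0% in all 4 lists. The median distance to a start was 40.8 kb in WT basal alone and 0.141 kb in regions of all 4 lists. Within 1 kb, 375 summits lay before the start and 759 past it, on the transcribed side, whereas in regions of all 4 lists 3119 lay before and 1654 past. The 3 other single lists leaned to the transcribed side as well, with 185 before and 352 past in WT KCl alone, 178 and 347 in cKO basal alone, and 313 and 587 in cKO KCl alone.

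**Figure D4:**
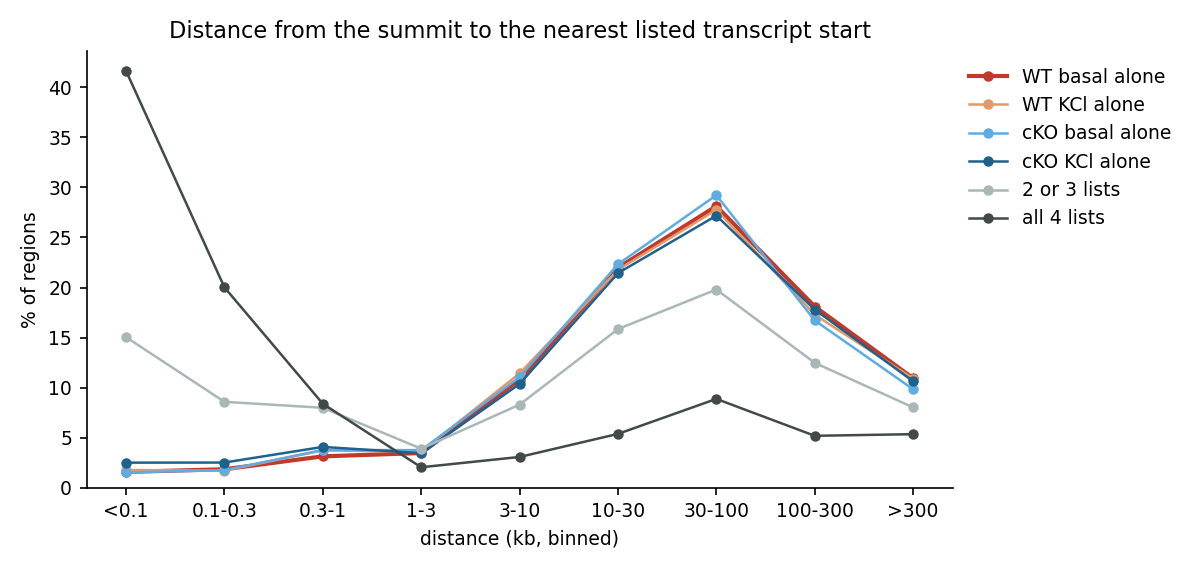
Percentage of regions (vertical axis) by distance in kb from the summit to the nearest listed transcript start (horizontal axis, binned), with regions in WT basal alone in red and the other classes in the colours of the legend. The 4 single-list curves peak at 30 to 100 kb, where WT basal alone has 28.1%, and the curve of all 4 lists peaks within 0.1 kb.

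Inside genes the regions were spread along the whole body. Of 6549 placed in genes with a listed start, 16.8% fell in the first 20% of the gene and 23.2% in the last, with 19.3, 20.5 and 20.2% in the stretches of equal length between. Of 854 regions of all 4 lists inside genes, 43.7% fell in the first 20%. Regions in WT basal alone between genes had a median distance of 34.9 kb to the nearest gene end, and 26.5% of them lay more than 100 kb away. For WT KCl, cKO basal and cKO KCl alone the medians were 32.7, 33.5 and 35.1 kb, in that order. The shares beyond 100 kb were 25.6, 24.7 and 26.9%.

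The regions lay about as far from the sites that are open in every list as regions of the other single lists did. The median distance to the nearest region of all 4 lists was 86.8 kb, against 84.6 kb for WT KCl alone, 81.9 kb for cKO basal alone and 87.9 kb for cKO KCl alone. With gaps of at most 10 kb, 4031 of the regions (22.7%) stood in 1880 runs, of which 33 held 4 regions and none more. The share in runs was 9.60% for WT KCl alone, 11.4% for cKO basal alone and 14.01% for cKO KCl alone, classes that also hold fewer regions. The 5 tightest runs of 4 lay over or beside Chd3, a remodeller ATPase of the NuRD complex (chr11:69366303-69373837), Ildr2 (chr1:166295719-166304628), Nmnat2, an NAD-synthesising enzyme that keeps axons alive (chr1:153074420-153084628), Clec2l and the kinase gene Hipk2 (chr6:38676817-38687395), and the collagen gene Col8a2 (chr4:126301024-126312105). No region of another list lay within any of these 5 spans. Per chromosome the density ran between 5.97 and 9.81 regions per Mb and was higher on chromosomes with more genes per Mb (Pearson r = 0.881 over 19 chromosomes, a description over points that share 1 list), while the share of merged regions stayed between 27.6 and 31.0%.

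The highest fold among gene-end regions, 4.95 with 50 fragments at the summit, was at Hacd4, an enzyme of very long fatty acid synthesis (chr4:88407024-88407388), 31.7 kb from its listed start and so at the far end of the gene. Pcf11, a factor that cleaves and terminates transcripts, followed at 4.62 (chr7:92668865-92669114), then Sar1b at 4.56, Nifk at 4.29, Ndufb4 at 4.18 and Ilkap, a protein phosphatase of integrin signalling, at 4.17. Ywhae stood at 4.10, Sem1 at 4.08, and Clhc1 and Agtpbp1 at 3.98 each. At 7 of these genes, Hacd4, Sar1b, Nifk, Ndufb4, Ilkap, Sem1 and Agtpbp1, no other list had a region at either gene end. For scale, this held for 850 of all 1802 genes with a region in WT basal alone at a gene end. At Pcf11, Ywhae and Clhc1 another list had a gene-end region, and at these 3 the nearest peak of another list lay 448, 423 and 60 bp away, in that order.

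Inside genes the strongest region lay in Myt1l, which encodes a zinc finger factor of neurons (fold 4.84, 52 fragments, chr12:29789395-29789648, 134 kb from the nearest gene end). Others lay in 4930467E23Rik (4.56), Zscan30 (4.47), the complex I assembly gene Timmdc1 (4.38), Wipf1, an organiser of actin filaments (4.37), Npas3, a brain transcription factor (4.37), and Rad51b, which acts in recombination repair (4.37). Trim24, a bromodomain coregulator, stood at 4.27, Nfasc, an adhesion molecule of the axon initial segment, at 4.18 and Tmem178 at 4.14. All 10 had summit pileups of at least 42 fragments.

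Between genes the strongest region lay 34.0 kb from Kif5b, a kinesin heavy chain gene (fold 4.66, chr18:6275514-6275806). The next lay nearest to Spock2, an extracellular matrix proteoglycan gene (4.504, 58 fragments, chr10:60151311-60151581), Cited2, a partner of CBP and p300 (4.37, 160 kb away), Vash1 (4.29), Dclk2 (4.27) and the kinetochore gene Nuf2 (4.18, 412 kb away). Those nearest to 1700009N14Rik and to the glycogen branching gene Gbe1 also stood at 4.18, and that nearest to the cytokine receptor gene Osmr at 4.09. The nearest peak of another list lay 616 kb from the region nearest to 1700009N14Rik. The nearest gene is given for position and not as a target.

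Long genes collected many of the regions. Ptprn2, a protein of secretory granules, and Cdh13, a cadherin anchored without a cytoplasmic domain, held 16 each in their bodies. Snx29, Nav2, Dlgap2 (a scaffold of the postsynaptic density) and Sox5 (a factor of deep-layer cortical neurons) held 15 each, Csmd2, Camta1 and Wwox 14 each, and Aff3 13. All genes of at least 20 kb together had 0.917 regions per 100 kb, and the whole span 0.743. Ptprn2 had 2.02, Cdh13 1.35, Snx29 3.44 and Sox5 1.57 per 100 kb. In Aff3, 13 of 23 merged regions were in WT basal alone (56.5%), and in Snx29 15 of 29 (51.7%). In Sox5 it was 15 of 33, with folds between 2.53 and 3.59. Among shorter genes the densest was Rpp30, a subunit of RNase P, with 4 of 4 regions in 21.1 kb, followed by Ttc34 with 5 of 7, Chd3 with 4 of 5, Col8a2 with 4 of 4 and Zmat3, an RNA-binding target of p53, with 4 of 7. These genes were named because they held the most regions, so their counts are descriptions.

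Near genes, the regions were so common that their presence says little. Of 20661 protein-coding genes, 14423 (69.8%) had at least 1 within 50 kb of the gene body, and 1802 (8.72%) had 1 at a gene end. For 850 genes (4.11%) these were the only gene-end regions, with none in another list. For gene lists the share of merged regions within 50 kb that were in WT basal alone was therefore set beside the same share near all protein-coding genes, 14606 of 51813 (28.2%).

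Most gene lists lay near that value. Rapid response genes stood at 39 of 159 regions (24.5%, 18.1 to 32.0) and delayed response genes at 25 of 102 (24.5%, 16.53 to 34.0). At least 1 region lay within 50 kb of 19 of the 20 rapid response genes, but none had 1 at a gene end by the gene table. Fos, the AP-1 subunit, had 3 of 11, of which 1 lay inside the gene with a fold of 2.29 and 65 bp from a peak of another list. Arc, a synaptic immediate early gene, had 3 of 6, and Fosb (3 of 16) and Ier2 (3 of 13) had as many. The Egr2 promoter shown above lies inside the gene as the gene table draws it. Among delayed response genes Crem and Mmp9 had 3 of 6 and 3 of 9.

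Neuronal lists held many of the regions in number, at shares near that of all genes. Excitatory identity genes stood at 71 of 236 (30.1%), led by Sox5 (17 of 36) and Foxp1 (10 of 28). Ion channel genes stood at 59 of 199 (29.6%), led by the L-type calcium channel genes Cacna1d (12 of 24) and Cacna1c (8 of 26). Synapse genes stood at 48 of 191 (25.1%), led by the scaffold gene Shank2 (10 of 30). The NMDA receptor gene Grin2b had 6 of 12, and Grin2a and Nrxn3 had 6 of 20 each. Axon guidance genes stood at 56 of 178 (31.5%), with Slit3 at 8 of 21 and Ntn1 at 7 of 16, and inhibitory neuron genes at 30 of 110 (27.3%), with Slc32a1, the vesicular GABA transporter, and Lhx6 at 3 of 8 each. All 5 intervals held the value of all genes.

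BAF subunit genes stood at 86 of 292 (29.5%, 24.3 to 35.0). Dpf3, a reader subunit of neuronal and muscle BAF, had 11 of 22, and its body held 9. Bcl11a had 6 of 14. At Smarca4 itself 4 of 12 regions within 50 kb were in WT basal alone, with folds between 2.43 and 3.5, and none lay in the gene body.

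Lists for other cells were mixed. The shares were 26.3% for astrocyte genes (20 of 76), 23.0% for oligodendrocyte lineage genes (20 of 87), 25.7% for microglia genes (19 of 74) and 27.6% for vascular genes (21 of 76), each with the value of all genes inside its interval. Aldh1l1 had 4 of 13, Slc1a3 4 of 9, Mbp 4 of 14 and Olig1 3 of 11. Aif1 had 6 of 15, Spi1 3 of 10, Flt1 8 of 18 and Cldn5 4 of 9. These genes were named for their high counts. No region in WT basal alone lay within 50 kb of Aqp4, Slc1a2, Glul, Cspg4, Tmem119, Itgam, C1qa, C1qb, Pecam1, Kdr, Tek, Cdh5 or Rgs5. Cell cycle genes stood at 24.4% (29 of 119), led by Mcm5, Tyms and Ccnd1 with 4 each.

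At 50 kb the lists furthest from the value of all genes were developmental genes of other lineages, neural progenitor genes and housekeeping genes. Developmental genes, such as Hox and Pax factors that are silent in cortex, had 52 of 132 regions in WT basal alone (39.4%, 31.0 to 48.3). Of the same 132 regions, 12 were in WT KCl alone (9.09%), 22 in cKO basal alone (16.7%), 18 in cKO KCl alone (13.6%) and 2 in all 4 lists (1.52%). Near all genes those shares were 12.3, 12.4, 16.48 and 13.1% in the same order. Pax2, a kidney and midbrain factor gene, had 7 of 11 and Hoxb4 6 of 10. The Hox genes alone stood at 37.0% (23.2 to 52.5) and the list without them at 40.7% (30.2 to 51.8), a split chosen after the values were seen. Genes of a Hox cluster share regions. At 10 kb the list stood at 40.3% (28.1 to 53.6), against 26.9% near all genes, and at 100 kb at 35.0% (28.4 to 42.1), against 28.6%, a value its interval holds.

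Neural progenitor genes stood at 22 of 119 (18.5%, 11.96 to 26.6), with the Notch receptor genes Notch2 at 4 of 14 and Notch1 at 3 of 12. At 100 kb the progenitor list stood at 26.6% (20.4 to 33.5), and its interval then held the 28.6% of all genes. Within 50 kb, regions of 2 or 3 lists made up 31.9% there, against 17.6% near all genes. Housekeeping genes stood at 21 of 143 (14.7%, 9.33 to 21.6), with the actin gene Actb at 2 of 11. At 100 kb they stood at 17.8% (13.4 to 22.9), still below all genes. Within 50 kb, regions of all 4 lists made up 23.8% there, against 13.1% near all genes.

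**Figure D5:**
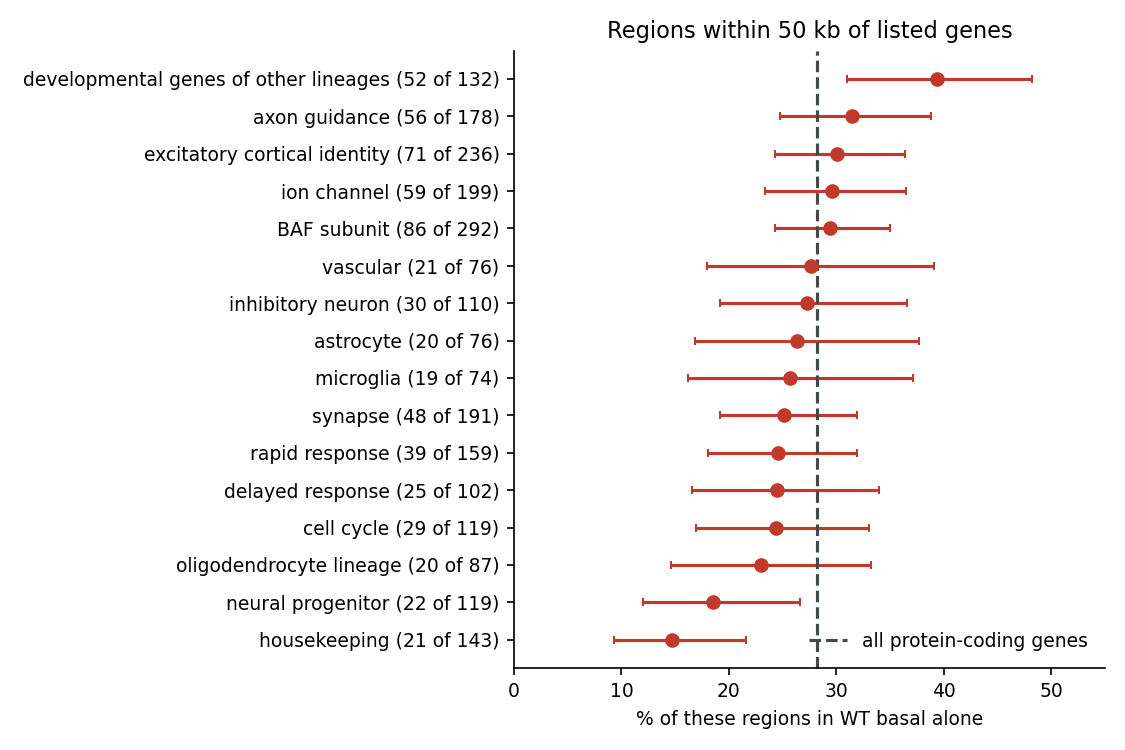
Percentage of the merged regions within 50 kb of the genes of each list that were in WT basal alone (points, horizontal axis) with exact 95% intervals; the counts stand beside each list name, and the dashed line marks all protein-coding genes (28.2%). Developmental genes lie above the line with their whole interval (31.0 to 48.3), and housekeeping genes (9.33 to 21.6) and neural progenitor genes (11.96 to 26.6) below it, and at 100 kb the intervals of the developmental (28.4 to 42.1) and progenitor genes (20.4 to 33.5) hold the value of all genes.

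At gene ends, 40 of the regions lay nearest to 39 genes of the lists and marker sets, with folds between 2.06 and 3.69. The strongest were at Sst, the somatostatin gene (3.69), Grin2b (3.40), the guidance cue gene Ntn1 (3.30), S100b, a calcium-binding protein of astrocytes (3.27), and Neurog1, a proneural factor (3.11). A peak of another list lay 134 bp from the Ntn1 region and 574 bp from that at Neurog1. The gaps were 6769 bp at Sst, 80357 bp at Grin2b and 15501 bp at S100b. The Sst summit lay 86 bp past its listed start and the S100b summit 72 bp before its own. The Grin2b summit lay 346 kb from the nearest listed start, that of Emp1. At 15 of 278 list genes the regions were the only ones at a gene end, with none in another list. This share was not far from that of all genes, 850 of 20661 (4.11%). Astrocyte genes gave 4 of the 15 from a list of 11 genes, namely Gfap, Aldh1l1, Slc1a3 and S100b, and developmental genes gave 4 from a list of 23, namely Hoxb4, Hoxb8, Pdx1 and Tbx5. The others were Fezf2, Sst, Grin1, Kcna2, Arid1a, Pax6 and Cnp. The rapid response, delayed response, axon guidance, cell cycle, microglia, vascular and housekeeping lists gave none. The Fezf2 summit lay 7.61 kb past its listed start, in a gene of 7.81 kb.

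At these 4 astrocyte genes the folds ran between 2.56 at Aldh1l1 and 3.27 at S100b. Gfap, the intermediate filament of astrocytes, had 2 gene-end regions, of which 1 had Gfap as its nearest gene and lay 996 bp from the gene end. That region had a fold of 2.75 with 42 fragments and a gap of 2158 bp to the next peak of another list. Aldh1l1, a folate enzyme, had 2.56 with 37 fragments and a gap of 8640 bp. Slc1a3, a glutamate transporter, had 2.82 with 28 fragments and a gap of 17025 bp. The Aldh1l1 region lay 874 bp from the gene end and the Slc1a3 region 222 bp, so their call as gene-end regions depends on the window of 1 kb to different degrees. Of the 11 astrocyte genes, 5 (Aldoc, Slc1a2, Sox9, Apoe and Glul) had a gene-end region that holds a peak of another list, and 9 had one with a WT basal peak. Of the 5 astrocyte markers (Gfap, Aqp4, Aldh1l1, Slc1a3 and Gja1), 3 had a gene-end region with a WT basal peak and 0 had one with a WT KCl, cKO basal or cKO KCl peak. For scale, the WT basal list had a gene-end region at 48.2% of all protein-coding genes, against 46.7% for the cKO KCl list, 41.5% for the WT KCl list and 40.4% for the cKO basal list. Of 8 neuron markers it was 7 in WT basal and 6 in each other list. Of 5 oligodendrocyte lineage markers it was 3 in the WT basal list, 2 in both KCl lists and 3 in the cKO basal list, and of 5 neural progenitor markers 3 in the WT basal list, 1 in the WT KCl list, 2 in the cKO basal list and 3 in the cKO KCl list. Microglia markers had 0 of 5 in every list, and endothelial and mural markers had 0 in WT basal and WT KCl and 2 of 5 in both cKO lists. Excitatory neuron markers had 1 of 5 in both WT lists and 2 in both cKO lists, and inhibitory neuron markers had 2 of 5 in cKO KCl and 1 in each other list. Fewer cells with an open site and less access per cell cannot be told apart in such bulk libraries, and the part of cell composition in the regions described here was not tested.

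Promoters under the regions differed in base content from those under shared regions. A summit lay inside a 300-base RefSeq promoter for 293 of the regions. Their median GC content was 60.0% and their median number of CpG dinucleotides 16, against 64.7% and 25 in the 3395 promoters under regions of all 4 lists and 57.0% and 14 in all 20084 promoters. A CpG observed-to-expected ratio above 0.6, the usual mark of a CpG island, was met by 53.2% of the 293, by 90.1% of those under regions of all 4 lists and by 48.9% of all promoters. Among the other single lists it was 67.1% of 152 in WT KCl alone, 49.6% of 127 in cKO basal alone and 58.0% of 262 in cKO KCl alone. The promoters under regions in WT basal alone thus lay nearer to all promoters than to the constantly open ones.

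Of the 20 motifs searched, some differed in share between the same promoter sets and others did not, and not all are given here. The E-box CAGCTG stood in 14.3% of the 293 promoters, in 14.2% of those under regions of all 4 lists and in 15.6% of all promoters. The SOX motif ACAATG stood in 5.80, 5.83 and 10.4% of the same sets. The GC box GGGCGG stood in 54.9% (49.1 to 60.7) of the 293 promoters, in 78.4% of those under regions of all 4 lists and in 47.0% of all promoters. CCAAT stood in 29.0% (23.9 to 34.6), in 50.3% and in 38.1% of the same sets, and TGACG, which every full CRE TGACGTCA also holds, in 22.9% (18.2 to 28.1), 37.9% and 24.0%. The AP-1 motif TGANTCA was in 6.48% (3.95 to 9.94), 3.39% and 7.06%, the E-box CAGATG bound by NeuroD factors in 14.7%, 8.25% and 14.6%, and the TATA box TATAAA in 9.56%, 3.62% and 12.7%. The full CRE was in 4.10% (2.13 to 7.04), 3.98% and 2.30%. In WT KCl alone, cKO basal alone and cKO KCl alone, in that order, the GC box stood in 54.6, 63.0 and 59.2% of promoters. CCAAT stood in 35.5, 25.2 and 32.8% there, and TGACG in 25.7, 18.9 and 27.5%. The AP-1 motif was in 6.58, 3.94 and 8.40%, and CAGATG in 14.5, 14.2 and 11.5%. TATAAA was in 7.24, 6.30 and 6.49%, and the full CRE in 1.97, 1.57 and 2.29%. Letters were searched on both strands of each promoter.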

How the data were processed

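The tools Bowtie2 and MACS2 and the build GRCm38 (also named mm10) are listed per the submitters' processing notes. Versions, settings, the handling of duplicates and the pooling of the 2 libraries in each condition are not given in the labels. The authors deposited 4 lists of nucleosome-free peaks, 1 for each condition, and each peak has a score, a ratio (fold over local background), a −log10 p-value, a −log10 q-value and a summit. A fold of (pileup + 1)/(background + 1) and a Poisson p-value gave back a whole summit pileup for 100% of peaks, within 0.001 in −log10 p. Lists were merged by an overlap of at least 1 bp on chromosomes 1 to 19, and regions were placed by the RefSeq gene table of GRCm38.p6 (1 kb for gene ends, 50 kb for gene lists, runs with gaps of at most 10 kb). Exons, introns and UTRs were not analysed here. The 286 entries of 16 gene lists all matched by symbol, and 8 lie on chromosome X. The members and lists were chosen with earlier results of these data known. Named were the 10 gene-end, 10 intragenic and 10 intergenic regions of highest fold, the 10 genes with most regions in the body and the 5 densest of at least 20 kb with at least 4 regions, gene-end regions of list genes, the 2 genes of each list with most regions (among tied genes the choice was made after values were seen), the 5 tightest of the longest runs, and Smarca4. A few items that this rule names are not reported here. With 1 list per condition no test was made, and shares carry exact 95% Clopper-Pearson intervals (SciPy 1.17.1, Python 3.11.15, pandas 2.3.3, NumPy 2.4.6). The merging and placing were tested on simulated data. Alternatives were other overlap rules, stricter thresholds, lists of equal length and other windows.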

Additional observations from a re-analysis of the deposited data

Results flagged for a closer look

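Chromosome X was outside the rule, and it also held regions in WT basal alone. They numbered 286 of 1406 merged X regions (20.3%, 18.3 to 22.5), against 27.6 to 31.0% on chromosomes 1 to 19. Chromosome X took 2.14% of WT basal peaks, 1.87% of WT KCl peaks, 2.72% of cKO basal peaks and 2.88% of cKO KCl peaks. On chromosome Y, 0 of 6 regions were in WT basal alone.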

How the results depend on the processing

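With 1 list per condition and a median of 29 fragments at the summit of these regions, absence from a list means only that a site stayed under the caller's threshold there. No paired analysis was possible because each list pools its libraries, and leaving out a replicate was not possible for the same reason. The 17794 regions numbered 7669 with all lists cut to the shortest, and, in cuts added after the data were seen, 4672 at −log10 q of at least 5 and 932 at 10, of which 3348 and 66 were among the 17794. The share of WT basal peaks (53.4%) was 51.0% when peaks were joined across 200 bp, 57.6% when a summit had to lie inside the other peak, 52.9% and 52.6% with −log10 q of at least 2 in all lists or in WT basal, 34.2% and 18.4% at 5 and 10, and 38.6% with lists of equal length. The gene-end share (9.82%) was 8.54% joined across 200 bp, 11.7% by summit, 19.3% and 56.1% at 5 and 10, 11.4% with equal lengths, and 6.54% and 14.5% with windows of 500 bp and 2 kb. The intragenic share (47.2%) was 46.4% by summit, 41.8% and 24.2% at 5 and 10, 45.8% with equal lengths, and 49.7% and 43.8% with the 500 bp and 2 kb windows. Of 32 gene-list shares at 10 and 100 kb, 28 stayed within their interval at 50 kb, and 4 fell below it at 10 kb. At 10 kb rapid response genes stood at 16.1% (8.02 to 27.7) and delayed response genes at 16% (7.17 to 29.1). Cell cycle genes stood at 16.7% (6.97 to 31.4) and housekeeping genes at 6.12% (1.28 to 16.9). All genes stood at 26.9% there, a value that each of these intervals except that of housekeeping genes holds. The causes were not tested.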

Other observations

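Of 919 RefSeq miRNA hairpins on chromosomes 1 to 19, 7 were overlapped by a region in WT basal alone: Mir6347, Mir7685, Mir8120, Mir7016, Mir293, Mir3057 and Mir3062. The number of hairpins under other merged regions is not given here, so these 7 cannot be read as many or few. The folds of the regions at these 7 hairpins ran between 2.00 at Mir3057 and 3.11 at Mir6347 and Mir8120, with 30 to 38 fragments at the summit. Mir293 belongs to a cluster known for its expression in embryonic stem cells, and the region there had a fold of 3.01.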
